A study of Mus musculus with 9 samples.

Results

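The miR-17-92 cluster is a group of miRNAs cut from 1 primary transcript, and 8 of its mature miRNAs were followed here in whole mouse kidneys taken at embryonic day 16.5. The 8 were taken by name (mmu-miR-17-5p, mmu-miR-17-3p, mmu-miR-18a-5p, mmu-miR-18a-3p, mmu-miR-19a-3p, mmu-miR-20a-5p, mmu-miR-19b-3p and mmu-miR-92a-3p, written below without the mouse prefix) and not by their values. They are 8 of 1607 known mouse miRNA names with at least 1 read and 8 of the 955 that had enough reads to be tested. Small RNA was sequenced from 9 libraries, 3 from wild-type kidneys (control), 3 carrying a DROSHA-E1147K transgene and 3 labelled DROSHA knockout, with 24350500 to 34896599 reads of known miRNAs per library. DROSHA, an RNase III enzyme of the nucleus, cuts hairpin precursors out of primary miRNA transcripts, and E1147K replaces a residue of one of its RNase III domains. The labels name 2 mouse lines in all but not their promoter, Cre driver or targeted cells, nor whether replicates are different animals. Fold changes therefore describe whole kidneys, and a p-value here reflects how far the libraries of a group scatter, which could be technical scatter alone. Drosha mRNA is not measured by this assay. In whole tissue, fewer cells that make a miRNA and less of it in each cell cannot be told apart.

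The cluster is known as an early described group of cancer-promoting miRNAs, which favour cell proliferation and survival, and its loss from the nephron progenitors of the mouse kidney is known to leave fewer nephrons. A miRNA finds its target mRNAs mainly through its seed, bases 2 to 8 counted from the 5′ end, so miRNAs with the same seed are thought to share most targets. By this rule the cluster holds 4 main families, those of miR-17, miR-18, miR-19 and miR-92, and close copies of its hairpins lie in a cluster within the gene Mcm7 and in another on the X chromosome. The primary transcript of miR-17-92 is also known to fold compactly, which affects how readily single hairpins are cut from it.

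The sequences are shown with the seed in capitals, because the seed decides which of the levels below belong together, and because some names differ by a single base. All were taken from RefSeq (GRCm38.p6), 5′ to 3′, and all 8 names had an entry.
miR-17-5p: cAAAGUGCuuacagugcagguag
miR-20a-5p: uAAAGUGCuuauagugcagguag
miR-18a-5p: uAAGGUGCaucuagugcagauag
miR-19a-3p: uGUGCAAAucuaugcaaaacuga
miR-19b-3p: uGUGCAAAuccaugcaaaacuga
miR-92a-3p: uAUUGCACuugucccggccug
miR-17-3p: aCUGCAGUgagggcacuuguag
miR-18a-3p: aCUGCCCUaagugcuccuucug
miR-17-5p and miR-20a-5p share a seed and differ at 2 positions, C1U and C12U (the base of the first miRNA, the position from the 5′ end, then the base of the second). miR-19a-3p and miR-19b-3p share a seed and differ at 1 position, U11C. miR-18a-5p differs from miR-17-5p within the seed, A4G, and at 5 further positions, 6 in all. miR-17-5p also differs by only 1 base, U10A, from miR-106a-5p of the X chromosome cluster. The labels and headers do not say how reads that fit several such names were assigned, so the counts of near-identical names are uncertain to that extent.

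The 6 hairpins lie on the plus strand of chromosome 14, from 115043671 to 115044506 (GRCm38, which is mm10), within 836 bases. Their order is mir-17 (115043671-115043754), mir-18a (115043851-115043946), mir-19a (115044000-115044081), mir-20a (115044157-115044263), mir-19b-1 (115044305-115044391) and mir-92a-1 (115044427-115044506). All 6 fall within exon 2 of the non-coding host gene Mir17hg in GENCODE vM21, where the RefSeq and GENCODE coordinates of the hairpins are the same. miR-19b-3p and miR-92a-3p each have a second locus with the same mature sequence in the X chromosome cluster, so their counts cover both loci. The label given to the group, guide strands (the arm of a hairpin that is mainly kept), did not hold for 2 of the 8, since miR-17-3p and miR-18a-3p were the less abundant arms of their hairpins in all 9 libraries.

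In control kidneys the cluster was dominated by miR-92a-3p, a regulator of vessel growth and cell survival. It was counted at 25383, 33410 and 22331 counts per 1000000 miRNA reads (CPM, after the TMM scaling of library sizes) and ranked 13 among the 1607 names. This single miRNA made up 73.3% ± 3.35 (SD, n = 3) of the reads of the 8 cluster miRNAs in controls. miR-19b-3p followed at 3363, 3243 and 2841 CPM. miR-20a-5p and miR-17-5p, which target cell-cycle inhibitors and pro-apoptotic genes, stood at 2858, 2878 and 2406 CPM and at 2179, 2290 and 2403 CPM. The ranges of miR-19b-3p and miR-20a-5p overlapped in controls, while miR-20a-5p was above miR-17-5p in every control, by a factor of 1.18 in the means. miR-18a-5p was counted at 1377, 1176 and 1074 CPM.

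The other 3 were far lower. miR-17-3p, the opposite arm of miR-17-5p, was at 248, 238 and 223 CPM in controls. miR-19a-3p was at 59.0, 36.5 and 46.4 CPM, although it lies in the same transcript as miR-19b-3p and differs from it by 1 base. miR-19b-3p was 69.1 ± 17.3 times as abundant (SD, n = 3), a ratio picked after the values had been seen. miR-18a-3p was lowest, at 24.1, 20.5 and 24.8 CPM, or 491 to 766 reads per control library. From miR-18a-5p downward no 2 neighbours in this order overlapped in any of the 3 groups. The order was the same in the transgene and knockout means, but miR-20a-5p and miR-17-5p overlapped there, and miR-20a-5p was the higher in 2 of 3 libraries of either group. These levels compare miRNAs of 21 to 23 bases as counted, with no correction for how well each sequence is captured in a library.

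**Figure D1:**
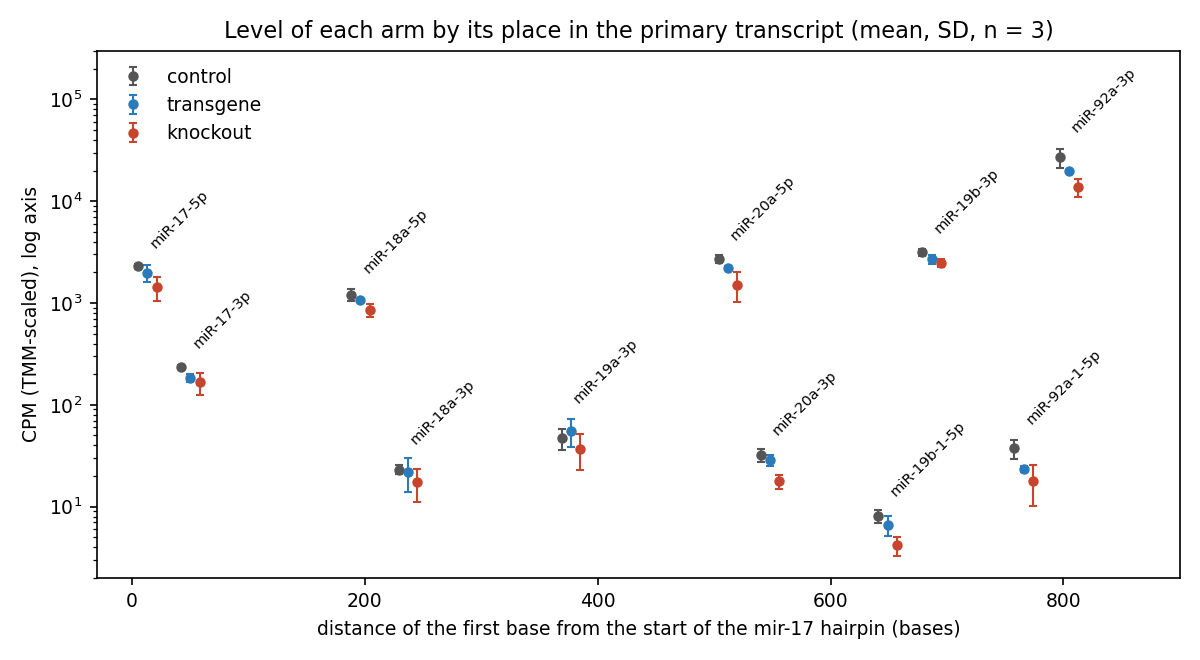
Level of each arm (CPM after TMM scaling, log axis) against the distance of its first base from the start of the mir-17 hairpin, as mean and SD of 3 libraries per group, with groups set 8 bases apart for legibility. The level does not run in order along the transcript: miR-92a-3p at the far end is highest, and miR-19a-3p in the middle lies between 37.1 and 55.9 CPM in the group means.

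The 8 together were also taken as a share of all miRNA reads, which is scaling to that total without TMM. They made up 3.24%, 3.82% and 2.90% in controls, 2.48%, 3.14% and 3.25% with the transgene and 2.58%, 2.15% and 1.66% in the knockout. Each knockout library was below every control, while the transgene overlapped with both other groups. Taken singly, only 2 of the 8 were below every control in the knockout under this scaling, and the total is mostly miR-92a-3p. Within the 8, miR-92a-3p made up 71.5%, 77.2% and 71.2% in controls, 71.4%, 69.7% and 70.7% with the transgene and 68.6%, 68.7% and 66.0% in the knockout. These shares are descriptions, with no test.

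In DROSHA knockout kidneys all 8 cluster miRNAs had lower means than in controls, and none passed the test. A negative fold change as such was found for 488 of 955 miRNAs (51.1%). miR-92a-3p was at 15907, 14669 and 10651 CPM, and each of these was below the lowest control. Its log2 fold change was -0.98 (SE 0.21, 95% interval -1.44 to -0.51 before adjustment), with an adjusted p of 0.108 in edgeR's quasi-likelihood test over all 955 miRNAs. DESeq2 gave -0.96 with an adjusted p of 0.018, the only setting in which a cluster miRNA passed. Without knockout 3, the lowest of the 9 libraries, the edgeR fold was -0.72 (adjusted p = 0.193).

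Both cluster miRNAs with the miR-17 seed were lower as well. miR-20a-5p was at 1889, 1684 and 963 CPM in the knockout, each below every control (log2 -0.84, SE 0.25, edgeR adjusted p = 0.109). Knockout 3 alone was under 1000 CPM, and the fold was -0.51 without it. miR-17-5p was at 1859, 1187 and 1245 CPM, again below every control (log2 -0.68, SE 0.23, edgeR adjusted p = 0.147), with knockout 1 standing above the other two. Its fold was -0.50 without knockout 3.

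miR-18a-5p, which targets the growth factor gene Ctgf among others, was at 968, 890 and 715 CPM in the knockout, below the lowest control of 1074 (log2 -0.50, SE 0.20, edgeR adjusted p = 0.178). miR-19b-3p was at 2302, 2715 and 2372 CPM, close to but below the lowest control of 2841 (log2 -0.35, SE 0.17, edgeR adjusted p = 0.229). miR-17-3p was at 198, 180 and 119 CPM, also without overlap (log2 -0.51, SE 0.24, edgeR adjusted p = 0.226). Without knockout 3 the fold changes of these 3 were smaller, at -0.29 for miR-18a-5p, -0.23 for miR-19b-3p and -0.23 for miR-17-3p, with edgeR adjusted p from 0.451 to 0.577. miR-19a-3p, at 37.1, 23.0 and 51.1 CPM, and miR-18a-3p, at 22.5, 10.6 and 18.7 CPM, overlapped with controls, and their edgeR adjusted p were 0.596 and 0.526. The smallest difference in an abundant member was thus that of miR-19b-3p and the largest that of miR-92a-3p.

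**Figure D2:**
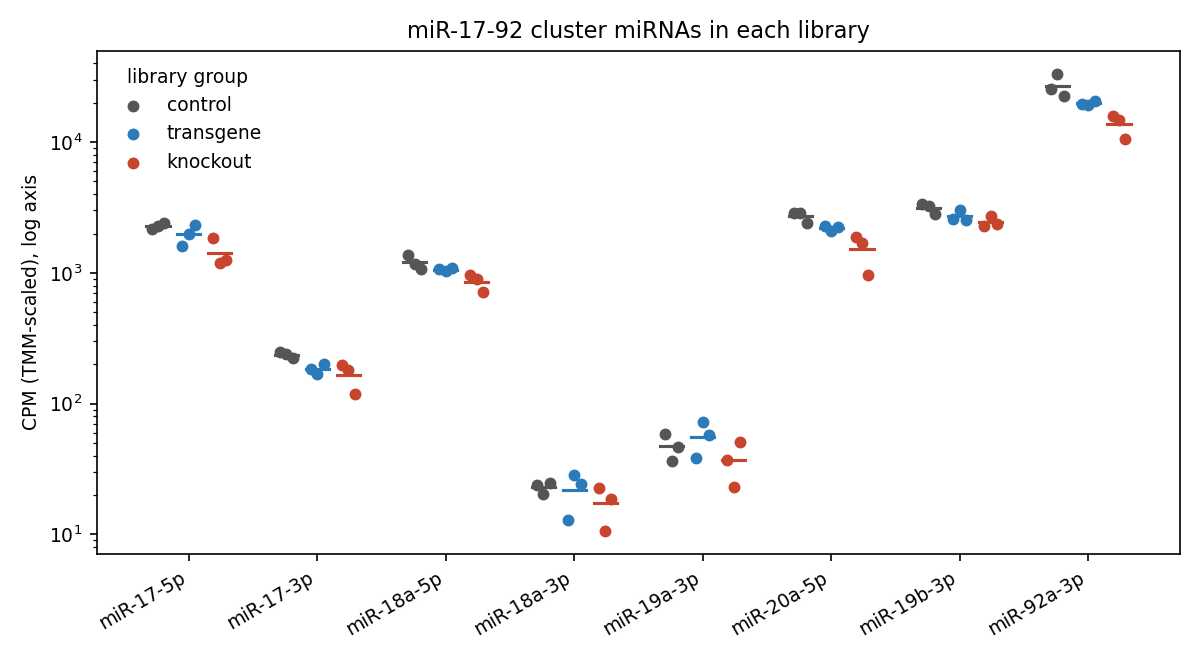
CPM after TMM scaling of the 8 cluster miRNAs (log axis), with 1 point per library and a bar at the mean of each group of 3. Knockout points lie below all control points for 6 of the 8, and miR-18a-3p and miR-19a-3p are the exceptions.

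Against the whole set of tested miRNAs, 0 of the 8 were called in the knockout, as were 0 of 955 (0%) by edgeR's quasi-likelihood test. Of the 955, 245 (25.7%) had an unadjusted p under 0.05 in either direction. DESeq2 called 104, of which 67 were higher and 37 lower in the knockout. Without knockout 1 edgeR called 48, of which 44 were higher and 4 lower, none of them a member. At an unadjusted p under 0.05 and lower, there were 4 of the 8 (miR-92a-3p, miR-20a-5p, miR-17-5p and miR-18a-5p) against 96 of 955 (10.1%). Every knockout library was below every control for 6 of the 8, and for 149 of the 955 (15.6%). The median log2 fold change of the 8 was -0.50, beside -0.03 for all 955. TMM scaling sets the bulk of miRNAs near no change, so the second median cannot show a fall common to all miRNAs. With libraries scaled to 7 miRNAs processed without DROSHA, the medians were -0.68 and -0.20. By that scaling 5 of the 8 did not overlap, against 12.8% of all miRNAs. Among the 95 miRNAs with over 1000 CPM in controls the median was -0.35, and 41 (43.2%) had every knockout below every control. Picking miRNAs by their control level can by itself tilt their fold changes against controls downward. Scaling mattered for the overlap. With libraries scaled to their total miRNA reads alone, 2 of the 8 did not overlap, against 8.27% of all miRNAs, and all 8 fold changes stayed negative. Without knockout 3 the count was 5 of 8, against 15% of all miRNAs.

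Summed levels of several marker lists also differed between the groups. The nephron tubule markers (5 of 5 detected in every library) summed to 5859 to 9295 CPM in controls, 4271 to 4989 CPM with the transgene and 3005 to 3604 CPM in the knockout. The miRNAs of the Hox clusters (4 of 4), which mark the kidney's position in the body, summed to 156820 to 175636, 88995 to 144350 and 57467 to 106804 CPM, and those of ureteric and tubule epithelium (5 of 5) to 35405 to 40208, 22193 to 34062 and 12885 to 30393 CPM. Erythroid miRNAs (4 of 4) ran the other way, at 21373 to 52284, 27204 to 79992 and 71661 to 112190 CPM. Striated muscle miRNAs (6 of 6) reached 10514 CPM in knockout 3, against 221 to 1254 CPM in controls and 458 to 2073 CPM in the other knockouts. The other 5 lists (stroma and smooth muscle, endothelium, leukocytes, neural, pancreas and liver) overlapped between all groups, for example stroma and smooth muscle (4 of 4) at 35006 to 43225, 36405 to 57577 and 35429 to 56636 CPM. No list had a marker at 0. Their part in the levels of the cluster was not tested.

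With the DROSHA-E1147K transgene, after TMM scaling, the means of all members but miR-19a-3p lay between those of the controls and the knockout. No member passed. The 3 transgene libraries held miR-92a-3p at 19417, 19357 and 20449 CPM, within a narrow range below every control (log2 -0.45, SE 0.20, edgeR adjusted p = 0.530). miR-20a-5p, at 2291, 2097 and 2245 CPM, and miR-17-3p, at 184, 168 and 200 CPM, were also below every control (log2 -0.30, SE 0.25, and -0.36, SE 0.24). miR-17-5p ranged from 1604 CPM in transgene 1 to 2332 CPM in transgene 3 and overlapped with controls (log2 -0.22, SE 0.23). miR-18a-5p was at 1071, 1030 and 1081 CPM, so that only its highest library entered the control range, and the fold was -0.19 (SE 0.20). miR-19b-3p overlapped as well, at 2572, 3029 and 2517 CPM (log2 -0.22, SE 0.17). miR-19a-3p had the only positive fold change, 0.24 (SE 0.37), at 38.2, 72.2 and 57.2 CPM. miR-18a-3p was at 12.9, 28.5 and 24.1 CPM (log2 -0.08, SE 0.37).

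By the background of that comparison, 3 of 8 without overlap, all below, stood beside 115 of 955 (12%), and the median was -0.22 beside -0.04 for all miRNAs. Among the 95 miRNAs with over 1000 CPM in controls, the median was -0.26 and 31 (32.6%) had every transgene library below every control. The choice by control level can tilt this comparison downward too. Fold changes were negative for 7 of the 8 and for 509 of 955 (53.3%). edgeR called 0 of 955 (0%) and DESeq2 called 4, of which 3 were higher and 1 lower. An unadjusted p under 0.05 was found for 84 miRNAs (8.8%), 34 of them lower (3.56%), and for no member. Without 1 of the controls, transgene 1 or knockout 2 (which enters through the scaling and filter), 5 of the 8 were without overlap, where the share of all miRNAs was 17.5% to 19.2% without a control, 23.3% without transgene 1 and 13.1% without knockout 2. The direction rested on the scaling. With totals of miRNA reads the median of all miRNAs moved to 0.18 and that of the 8 to 0.015, miR-17-5p (0.022), miR-18a-5p (0.030), miR-18a-3p (0.18) and miR-19b-3p (0.0077) turned positive, and every member overlapped with controls. With totals of all counted reads every member overlapped too, and miR-18a-3p turned positive (0.11). miR-92a-3p, miR-20a-5p and miR-17-3p stayed negative under all 4 other scalings.

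**Figure D3:**
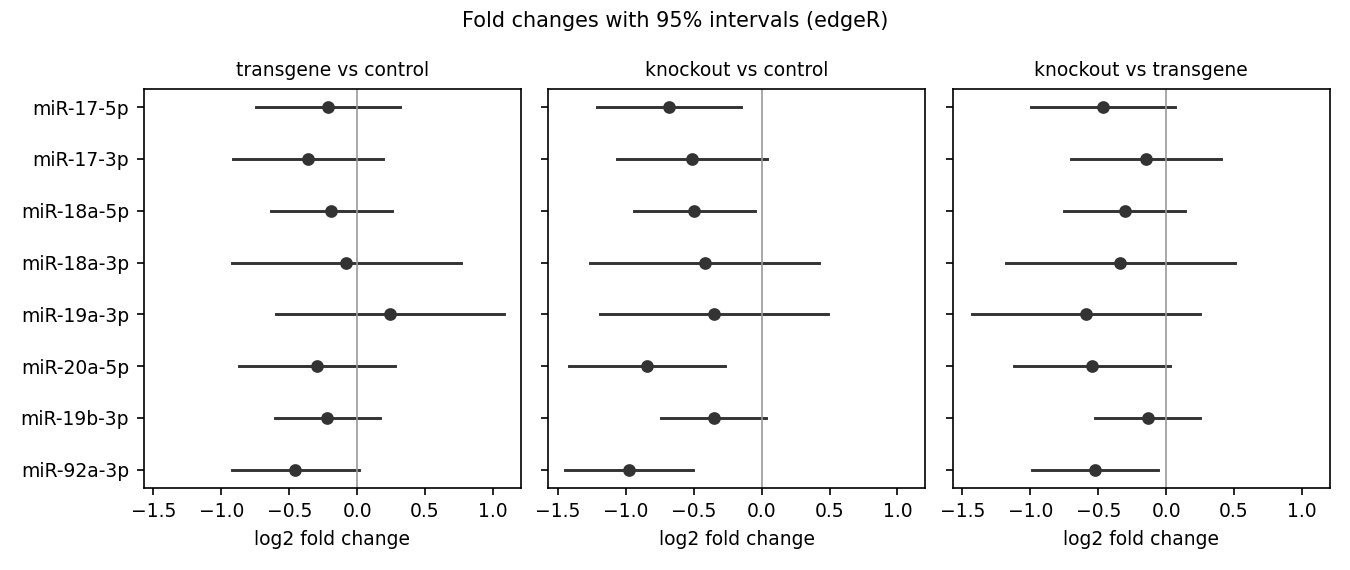
Log2 fold change of each cluster miRNA in the 3 comparisons, with the 95% interval of the edgeR fit before adjustment for the number of miRNAs. In the comparison of knockout with control the intervals of miR-92a-3p, miR-20a-5p, miR-17-5p and miR-18a-5p lie below 0, and no member passes after adjustment.

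The direct comparison of the DROSHA groups tests whether the knockout differed from the transgene. All 8 log2 fold changes were negative, as were 448 of 955 (46.9%), from -0.14 for miR-19b-3p to -0.59 for miR-19a-3p, with edgeR adjusted p from 0.652 to 0.856. For miR-92a-3p, miR-20a-5p and miR-18a-5p every knockout library was below every transgene library, 3 of 8 beside 57 of 955 (5.97%). miR-92a-3p had a log2 fold change of -0.52 (SE 0.20), and miR-20a-5p of -0.55 (SE 0.25). An unadjusted p under 0.05 was found for miR-92a-3p alone among the 8, beside 67 of 955 (7.02%), 34 of them lower (3.56%). The median of the 8 was -0.40, beside 0.05 for all miRNAs. edgeR called 1 of the 955 (0.105%), miR-3067-5p, which is no member of the cluster. Among the 95 abundant miRNAs the median was -0.06 and 12 (12.6%) were below without overlap. With totals of miRNA reads none of the 8 was without overlap (5.86% of all miRNAs), and without transgene 1 it was 6 of 8 (10.5% of all). Without knockout 3 the fold changes were -0.34 for miR-92a-3p, -0.28 for miR-20a-5p and -0.17 for miR-18a-5p. Both comparisons with controls share the same 3 control libraries, so their fold changes are not independent of each other.

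The opposite arms of the same hairpins were counted under their own names and were not used to choose the 8. 3 of the 4 had enough reads to be tested, and miR-19a-5p, with means of 0.31 CPM in controls and 0.23 CPM in the knockout, did not. In the knockout all 3 were below every control, as were 149 of all 955 miRNAs (15.6%). miR-20a-3p was at 17.7 ± 2.65 CPM against 32.3 ± 4.81 in controls (SD, n = 3 each). Its log2 fold change was -0.87 (SE 0.24, edgeR adjusted p = 0.108). miR-92a-1-5p was at 17.8 ± 7.69 CPM against 37.3 ± 8.04, lowest in knockout 3 at 9.45 CPM. Its log2 fold change was -1.06 (SE 0.36, edgeR adjusted p = 0.139). miR-19b-1-5p was at 5.20, 3.74 and 3.55 CPM against 8.89, 8.54 and 6.81 (log2 -0.96, SE 0.29, edgeR adjusted p = 0.109). None of these opposite arms passed in any comparison.

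The last pair also tells the copies apart, since miR-19b-1-5p and miR-92a-1-5p come from chromosome 14 only, and their counterparts miR-19b-2-5p and miR-92a-2-5p from the X chromosome only. Of the reads of both miR-92a opposite arms, the chromosome 14 arm took 94.7% ± 0.383 in controls, 94.6% ± 1.28 with the transgene and 95.6% ± 1.24 in the knockout (SD, n = 3 each). Single libraries ran from 93.4% (exact 95% interval 91.3 to 95.2) to 97.0% (94.2 to 98.7). For miR-19b the shares were 95.9% ± 1.17, 96.0% ± 2.52 and 96.0% ± 1.11, from 3 to 13 reads of the X chromosome arm per library. The groups did not separate on either share. How the opposite arms divide need not be how the mature sequences divide.

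Ratios within a library do not depend on the scaling, and 9 were compared, namely the 5p to 3p ratio of 4 hairpins and the ratio of 5 other members to miR-17-5p. The 5p arm of mir-17 outnumbered the 3p arm 9.74 ± 1.0 times in controls, 10.7 ± 1.74 times with the transgene and 8.80 ± 1.98 times in the knockout (SD, n = 3 each). For mir-18a the 5p arm led 52.6 ± 8.16, 54.6 ± 24.9 and 55.0 ± 25.1 times, and for mir-20a 84.6 ± 4.76, 78.2 ± 12.9 and 87.0 ± 31.5 times. At mir-19a the arms were reversed, with 0.006 reads of the 5p arm per read of the 3p arm in controls. miR-92a-3p was counted 11.8 ± 2.65 times as often as miR-17-5p in controls and 9.83 ± 2.19 times in the knockout, and miR-19b-3p 1.38 ± 0.18 and 1.81 ± 0.53 times. All 27 comparisons of log2 ratios between groups overlapped. The smallest exact two-sided permutation p was 0.3, where 3 against 3 libraries allow 0.1, and the adjusted values ran from 0.995 to 1.0. No test of this design could have passed 0.05, so these p-values say nothing of whether hairpins or arms were balanced.

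Seen by seed, the cluster's weight differed between families. Of all reads with the miR-17 seed, miR-17-5p and miR-20a-5p gave 31.3% ± 3.24 in controls, and most of the rest came from miR-93-5p of the Mcm7 cluster, at 9182, 12951 and 9408 CPM. In the knockout miR-93-5p was at 6287, 7087 and 4419 CPM (log2 -0.83, SE 0.22, edgeR adjusted p = 0.108). The share of the 2 cluster miRNAs in that seed was 34.9% ± 1.90 with the transgene and 31.6% ± 3.86 in the knockout. The total over that seed was 16154 ± 2212 CPM in controls, 11987 ± 353 with the transgene and 9287 ± 1997 in the knockout (SD, n = 3 each).

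For the miR-92 seed most of the reads were of miR-92a-3p, whose count covers both of its loci. miR-92a-3p made up 88.7% ± 1.84 of them in controls and 84.4% ± 2.98 in the knockout, and miR-25-3p of the Mcm7 cluster was the next, at 2750 ± 140 and 2077 ± 216 CPM. The total over this seed was 30394 ± 5782 CPM in controls, 22454 ± 595 with the transgene and 16218 ± 2732 in the knockout. miR-18a-5p carried 97.0% ± 0.288 of the miR-18 seed, and miR-19a-3p and miR-19b-3p all of the reads with the miR-19 seed among RefSeq names, at 3196 ± 277, 2762 ± 294 and 2500 ± 211 CPM. These totals are descriptions, with no test.

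**Figure D4:**
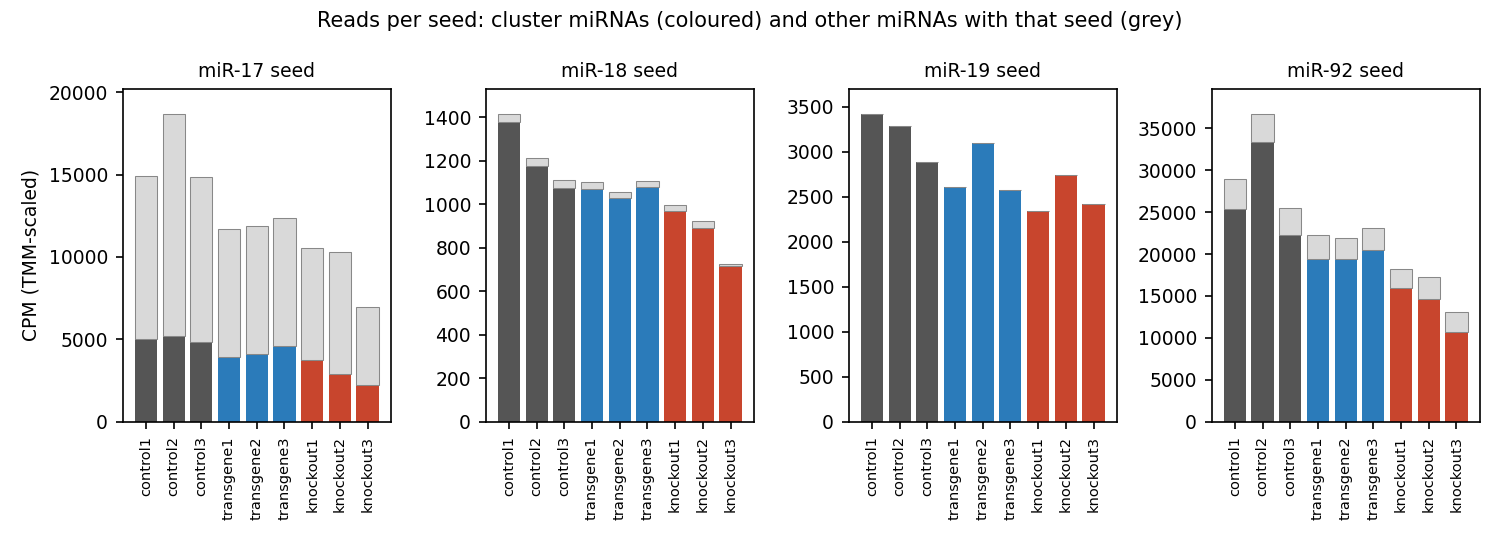
CPM after TMM scaling per library for all miRNAs with each of the 4 seeds, each panel with its own axis from 0. Coloured bars are cluster miRNAs and grey bars other miRNAs with that seed, which make up most of the miR-17 seed and a minor part or none of the other 3.

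The miRNAs of the paralogous clusters within Mcm7 and on the X chromosome, 16 arms in all, were set beside the cluster as a list. 14 were tested, and all 14 had negative fold changes in the knockout (51.1% of all miRNAs), but 0 passed. Every knockout library was below every control for 8 of the 14 (15.6% of all), and 6 were lower with an unadjusted p under 0.05 (10.1% of all). Their median was -0.62, beside -0.50 for the 8 cluster miRNAs. With the transgene all 14 were negative too, with a median of -0.26 and 5 below without overlap (12% of all). Whether the clusters differ from each other was not tested. In the knockout the 14 ran from -1.23 for miR-92a-2-5p to -0.13 for miR-106b-3p. miR-20b-5p and miR-363-3p of the X chromosome cluster had fold changes of -0.80 (SE 0.32) and -0.83 (SE 0.34). The count of negative fold changes includes miR-106a-3p and miR-18b-3p, which had few reads, with means of 0.54 and 0.64 CPM in controls.

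A second set of rows in the deposited tables counts reads to Rfam families of miRNA precursors, apart from the mature names. The mir-92 family row was at 4367, 5457 and 4225 CPM in controls and 3787, 3432 and 4206 with the transgene. It was at 3324, 2999 and 2564 CPM in the knockout. After TMM scaling no 2 groups overlapped, though transgene 3 was just under control 3. Without the TMM factors (0.926 for control 3, 1.13 for transgene 3) the transgene overlapped with both other groups. The mir-17 family row was at 242, 235 and 246 CPM in controls and 215, 148 and 150 in the knockout. The transgene overlapped with both at 185, 214 and 268 CPM, and without the TMM factors the knockout overlapped with controls too. The mir-19 family row overlapped in all comparisons, at 23.6, 24.8 and 20.5 CPM in controls and 12.7, 21.8 and 23.4 in the knockout. These rows cover more miRNAs than the cluster, and have no test and no share over all families beside them.

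By mean absolute difference from the average profile of the 8 over the 9 libraries (log2 CPM, each profile centred on its mean), the nearest of 445 other miRNAs with at least 10 CPM were miR-28a-5p (0.16), miR-466g (0.17), miR-301b-3p (0.17), miR-96-5p (0.17) and miR-340-3p (0.18), where the median of the 445 was 0.41. The opposite arms and the miRNAs of the paralogous clusters were left out of the 445, so their nearness was not examined. The members themselves lay at 0.11 for miR-18a-5p to 0.33 for miR-19a-3p. miR-96-5p, for example, was at 1061, 639 and 705 CPM in controls and 604, 462 and 362 in the knockout (log2 -0.75, SE 0.28, edgeR adjusted p = 0.168). This order favours miRNAs whose levels vary little, and it is a description of 9 libraries.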

How the data were processed

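The authors deposited 1 table of small RNA counts per library. Per the file headers, the count column holds raw reads per name, and the counts add up to the total in the header (31743004 to 42609889). The deposited TPM column is the count per 1000000 of that total, within 0.005, and was used only as a check. Per the submitters' processing notes, CASAVA 1.8, Bowtie2 and mm10 were used, with no role stated. Per the labels' protocols, RNA was extracted with Trizol and libraries followed BGI's protocol.

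Counts of known mouse miRNAs (mature and hairpin rows of a name added; members had no hairpin rows) were scaled by TMM, filtered with filterByExpr and fitted with edgeR 4.0.16 in R 4.3.3 over all 9 libraries. Contrasts were tested by the quasi-likelihood F test, and p-values were adjusted over 955 miRNAs by Benjamini-Hochberg (called under 0.05). The standard error is the fold change over the square root of F. Groups come from the titles. Ratios used a pseudocount of 1 read and exact two-sided permutation tests (SciPy 1.17.1), adjusted over 27. DESeq2 1.42.0, other scalings, no filter, fewer libraries and the replicate block were alternatives. The fit was tested on simulated counts. Binomial intervals are exact (Clopper-Pearson) and cover counting error only. Replicates differed by more than sampling noise.

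The members and lists were chosen with earlier results of these data known. Named were the 8 members, the opposite arms of their hairpins, the paralogous clusters and the 5 miRNAs outside these lists nearest in profile. miR-3067-5p was named after its values were seen.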

Additional observations from a re-analysis of the deposited data

How the results depend on the processing

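Of 18 alternatives, DESeq2 changed the counts of miRNAs called most, to 4 for transgene against control, 104 for knockout against control and 3 for knockout against transgene. It alone called a member, miR-92a-3p in the knockout (log2 -0.96). Leaving out 1 library gave 0 to 48 calls for knockout against control (48 without knockout 1) and 0 to 1 for knockout against transgene, where 0 were called with only the 2 groups compared. The replicate block gave 0 calls in each comparison. Libraries of the same number did not vary together (r from -0.31 to 0.104), so the block rests on a shared number only.

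For transgene against control, totals of miRNA reads turned miR-17-5p (0.022), miR-18a-5p (0.030), miR-18a-3p (0.18) and miR-19b-3p (0.0077) positive. miR-18a-3p was also positive with totals of all reads (0.11) and with only 2 groups (0.012), and ran from -0.25 to 0.13 when 1 library was left out. For knockout against transgene miR-17-3p then ran from -0.31 to 0.065. The cause was not tested. The counts of members without overlap, a measure added after seeing the data, were 0, 2 and 0 with totals of miRNA reads (transgene against control, knockout against control, knockout against transgene). The shares of all miRNAs were then 4.19%, 8.27% and 5.86%. With totals of all reads the counts were 0, 6 and 2, beside 6.28%, 11.1% and 6.91% of all miRNAs. Leaving out 1 library gave 3 to 5, 5 to 7 and 3 to 6, while the share of all miRNAs ran from 8.79% to 23.3%, 12.1% to 22% and 4.85% to 11.2%.

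Of the 27 log2 ratio differences, 16 changed sign when some single library was left out and 11 kept it. For transgene against control the 16 included mir-18a arms (-0.38 to 0.22), mir-19a arms (-0.74 to 0.094), and the ratios to miR-17-5p of miR-18a-5p (-0.10 to 0.18), miR-20a-5p (-0.23 to 0.057) and miR-19b-3p (-0.10 to 0.19). For knockout against control they were the arms of mir-17 (-0.30 to 0.027), mir-18a (-0.37 to 0.20), mir-19a (-0.28 to 0.56) and mir-20a (-0.26 to 0.30), and the ratios of miR-19a-3p (-0.041 to 0.52) and miR-20a-5p (-0.41 to 0.023). For knockout against transgene they were the arms of mir-18a (-0.34 to 0.36) and mir-20a (-0.14 to 0.42), and the ratios of miR-19a-3p (-0.49 to 0.057), miR-20a-5p (-0.35 to 0.084) and miR-92a-3p (-0.24 to 0.064). Relative counting error is larger for miR-18a-3p, with 261 to 927 reads, than for miR-92a-3p, with 294278 to 807976. The part of depth in these sign changes was not tested.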

Other observations

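Several ratios outside the 9 compared were picked after the values had been seen, and have no test. miR-19b-3p was counted 378, 380 and 417 times as often as its opposite arm miR-19b-1-5p in controls, 522, 410 and 337 times with the transgene and 443, 725 and 669 times in the knockout, where each library lay above every control. miR-19b-1-5p had only 154 reads in knockout 1 and 185 in control 3, the nearest libraries, so counting error limits this separation. The count of miR-19b-3p also covers its X chromosome locus. miR-92a-3p was counted 7.55, 10.3 and 7.86 times as often as its neighbour miR-19b-3p in controls, 7.55, 6.39 and 8.12 times with the transgene and 6.91, 5.40 and 4.49 times in the knockout, where each library lay below every control. The other ratios picked in this way, miR-92a-3p to miR-92a-1-5p and miR-19b-3p to miR-19a-3p, overlapped between all groups.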
